A study of Drosophila melanogaster with 2 samples.

Results

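The genes described here encode the 7 subunits of the Drosophila NSL (non-specific lethal) complex, namely MBD-R2, mof, nsl1, dgt1, Rcd1, Rcd5 and wds. They were chosen by name in the Ensembl annotation, and are 7 of 13968 protein-coding genes and of 18277 annotated genes on the 7 chromosome arms. Binding of one of these subunits, MBD-R2, at the genes of its own complex was read from chromatin immunoprecipitation with sequencing (ChIP-seq) in whole Drosophila melanogaster embryos with an age of 0 to 24 h. The embryos carried a transgene insertion for MBD-R2 fused to eGFP. Chromatin sonicated to 200 to 800 bp was precipitated, as the labels are read here, through the eGFP tag. The series has 1 group with 2 biological replicates of this 1 line, and control libraries were not analysed here. The sources used here do not give the promoter that drives the fusion, the genomic extent of the transgene or the state of the endogenous MBD-R2 gene. In whole embryos, fewer cells with binding and less binding per cell cannot be told apart.

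The NSL complex is a chromatin regulator that sits at the promoters of many housekeeping genes. Its enzyme, MOF, acetylates histone H4, and the other subunits bring this activity to active promoters and hold the complex together. MOF is shared with the MSL complex of dosage compensation, and WDS, the fly homolog of mammalian WDR5, is shared with histone methyltransferase and acetyltransferase complexes.

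The letters at 5 of these start sites are given first because the peaks described afterwards overlap them. The main-list promoter summits of MBD-R2, nsl1 and dgt1 lie within the letters shown, and those of mof and Rcd5 lie outside. Each sequence reads along the gene and ends 20 bp after the transcription start site (TSS). It begins 150 bp before the TSS, except at Rcd5, where it begins nearer, just inside the divergent gene CG11593. The genome is the RefSeq copy of dm6. Capitals mark matches, on either strand, to 6 promoter motifs. The DRE was searched as TATCGATA and Motif 1 as GGTCACACT. The E-box was searched as CAGCTG, and Motif 7 as CANCNCTA. The GAGA string was read as GAGAG, while the TATA string was read as TATAAA. Where matches overlap, they form 1 run of capitals. The sequence of Rcd1 is not shown.
MBD-R2, chr3R:12356245-12356415, minus strand: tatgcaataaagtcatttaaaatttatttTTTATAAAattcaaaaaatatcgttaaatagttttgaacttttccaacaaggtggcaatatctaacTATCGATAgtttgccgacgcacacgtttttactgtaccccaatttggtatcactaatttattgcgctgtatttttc
mof, chrX:5876833-5877003, minus strand: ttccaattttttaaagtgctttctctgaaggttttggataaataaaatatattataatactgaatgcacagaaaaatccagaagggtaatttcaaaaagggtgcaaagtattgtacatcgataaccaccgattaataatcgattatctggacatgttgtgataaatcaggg
nsl1, chr3R:15793632-15793802, plus strand: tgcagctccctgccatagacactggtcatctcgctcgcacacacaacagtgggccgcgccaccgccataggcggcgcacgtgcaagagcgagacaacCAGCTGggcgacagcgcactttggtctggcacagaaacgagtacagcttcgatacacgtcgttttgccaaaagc
dgt1, chr3R:29857471-29857641, minus strand: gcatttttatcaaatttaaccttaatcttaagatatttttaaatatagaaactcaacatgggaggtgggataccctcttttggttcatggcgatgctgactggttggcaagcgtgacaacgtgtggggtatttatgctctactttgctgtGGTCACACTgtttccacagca
Rcd5, chr3L:4040462-4040549, plus strand: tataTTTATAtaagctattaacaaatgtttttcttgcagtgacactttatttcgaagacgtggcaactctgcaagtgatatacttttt
Rcd5, Motif 1 match, chr3L:4040551-4040579, plus strand: ctgctggtgcGGTCACACTgctgagctgt

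Motifs are given for MBD-R2, mof, nsl1, dgt1, Rcd1 and Rcd5, and no single one was held by all 6. From 150 bp before to 50 bp after a TSS, Motif 1 was present at 2 of the 6 genes, dgt1 and Rcd5, against 11.3% of the 6151 bound protein-coding promoters and 5.49% of all 13968 protein-coding promoters. In dgt1 the match begins at the TSS itself and in Rcd5 32 bp after it. The DRE, the DNA replication-related element bound by the factor DREF, was present, of the 6, only at MBD-R2, 55 bp before the TSS, against 15.7% of bound promoters and 8.21% of all promoters. The E-box was found at nsl1, 53 bp before the TSS, and at Rcd1, 43 bp before its 5′-most TSS, against 21.3% of bound and 14.1% of all promoters. Rcd1 also held the Motif 7 match of the list, against 20.1% of bound and 12.6% of all promoters, and GAGA matches, against 18.4% and 22.6%. TATA letters were present at MBD-R2 and Rcd5, against 29.9% of bound and 32.7% of all promoters. Those of Rcd5, 63 and 73 bp before its TSS, lie inside the divergent gene CG11593. The mof window held none of the 6 strings. A match describes letters in a window, and the absence of a match says nothing about the factor.

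Every NSL gene carried an MBD-R2 summit within 500 bp of a TSS in the main list, which the authors made from both replicates, against 44.0% of all protein-coding genes. The count was again 7 of 7 in the conservative list, against 39.7% of all protein-coding genes, and in the list of replicate 2, against 43.5%. It was 5 of 7 in the list of replicate 1, against 33.2%. With 7 genes, 1 group and members chosen with earlier results known, these counts are descriptions and carry no test.

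The NSL promoters were spread over the ranks of bound genes below the strongest. The signal value is the authors' measure of a peak, and its scaling is not stated. It had a median of 206.1 over the 7 promoters, with a range of 71.9 to 261.7. Over all 6151 bound genes the median was 170.3 and the quartiles were 113.2 and 259.7. Of the 7 genes, 4 were above the median of bound genes. The median NSL gene was stronger than 62.6% of bound genes. In the list of replicate 1, which lacks nsl1 and wds, the median of the other 5 genes was 47.2%. Among the 4595 distinct promoter peaks, each counted once, the best placed NSL peak, at Rcd5, had rank 951 and the last, at wds, rank 4174.

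**Figure D1:**
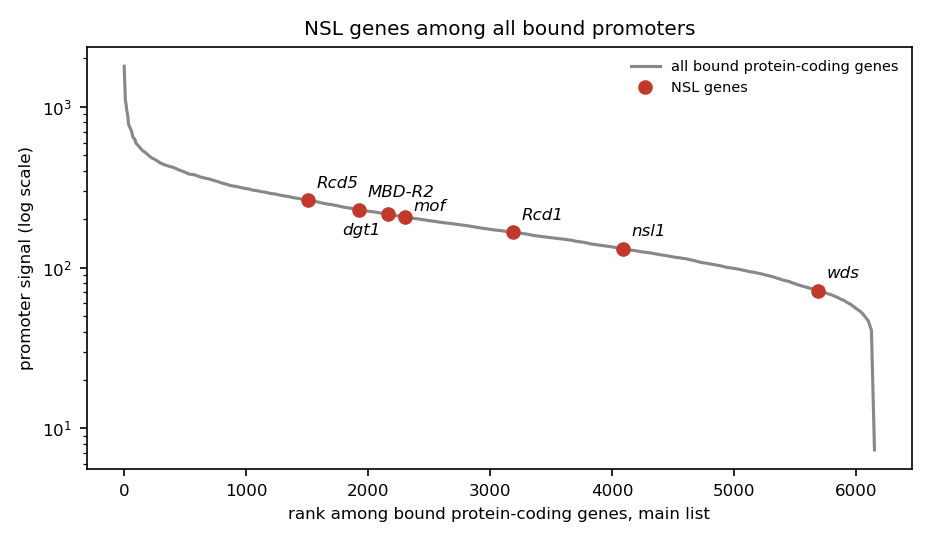
Promoter signal in the main list (y axis, log scale, authors' units) against the rank among bound protein-coding genes (x axis), with the 7 NSL genes as red points and all 6151 bound genes as the grey line. Rcd5 is highest at 261.7 and wds lowest at 71.9, at ranks 1509 and 5689 of the 6151 genes.

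MBD-R2, whose protein is the tagged one and is the fly homolog of PHF20, lies on 3R at 12352143 to 12356265 (minus strand) and has 1 TSS. Its promoter peak had a signal of 228.5, rank 1926 of 6151, with the summit 18 bp into the gene. The 2 replicates had summits 65 bp after and 21 bp before the TSS, with signals of 75.8 in replicate 1 and 147.8 in replicate 2. Both replicates therefore placed a thresholded peak on the start site.

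The gene of the enzyme, mof, lies on X at 5873840 to 5876853 (minus strand). Its peak had a signal of 206.1, rank 2303, and the summit lay 101 bp downstream of the TSS, inside a coding exon. The replicate summits were 133 bp downstream in replicate 1, with a signal of 73.8, and 74 bp downstream in replicate 2, with a signal of 126.9. In both replicates the summit was thus past the start site.

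The gene nsl1, homolog of the mammalian scaffold subunit KANSL1, is the longest of the 7 and lies on 3R at 15793782 to 15802102 (plus strand), with 12 transcripts that share 1 TSS. Its peak had a signal of 130.5, rank 4092, and the summit was 146 bp upstream. Replicate 2 had the peak at the same base with a signal of 83.6. Replicate 1 had a signal of 51.0 at a summit 136 bp upstream, with a −log10 IDR of 0.709 where the authors' threshold is 2, so the peak was in its ranking and not in its list. The IDR, or irreproducible discovery rate, measures how consistently a peak is ranked between compared lists.

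The genes dgt1, Rcd1 and Rcd5 encode the homologs of KANSL2, KANSL3 and MCRS1. On 3R at 29854695 to 29857491 (minus strand), dgt1 had a peak of signal 214.8, rank 2163, with the summit 12 bp into the gene. Its replicate signals were 82.1 in replicate 1 and 135.1 in replicate 2, with summits 24 bp and 9 bp into the gene. Among the strongest main-list promoter peaks of the 7 genes, that of dgt1 had the summit closest to a TSS. In replicate 2 the summit of wds was closer, at 3 bp.

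Rcd1 lies on 2R at 14148263 to 14153123 (minus strand) and has 2 annotated TSSs, of which the inner one, at 14152708, starts 5 of its 8 transcripts. The stronger of its 2 promoter peaks, signal 165.6 and rank 3187, had its summit 63 bp upstream of the outer TSS and 33 bp inside the divergent gene pea, which encodes an RNA helicase of splicing. Replicate 1 had a signal of 59.1 there and replicate 2 one of 123.5. The other peak, signal 92.4, lay 182 bp downstream of the inner TSS. It was in the list of replicate 2 with a signal of 67.8, while replicate 1 had 35.2 with a −log10 IDR of 1.89, just under the threshold. A call that keeps the strongest peak per gene leaves this second start site out.

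Rcd5 lies on 3L at 4040529 to 4042597 (plus strand). It had the highest promoter signal of the complex, 261.7 and rank 1509, yet that summit lay 142 bp upstream of its TSS and 95 bp inside the divergent gene CG11593. Replicate 1 had a signal of 77.6 and replicate 2 one of 177.4. A second summit, 57 bp downstream of the Rcd5 TSS, had a signal of 68.6. Replicate 1 listed it with a signal of 59.4, replicate 2 had 27.4 with a −log10 IDR of 0.142 and no listed peak, and the conservative list did not hold it. The rank of Rcd5 thus rests on a summit nearer to its neighbour, and the summit nearer to its own TSS was the weaker. With the nearest peak in place of the strongest, Rcd5 had 68.6, the lowest of the 7 and under wds at 71.9.

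The gene wds lies on X at 2585980 to 2588217 (plus strand) and had the lowest promoter signal of the complex. Its peak had a signal of 71.9, rank 5689, which is stronger than 7.51% of bound genes, and the summit was 30 bp upstream. Replicate 2 listed it with a signal of 56.2 at 3 bp upstream. Replicate 1 had a signal of 29.9 with a −log10 IDR of 0.741, so the peak was not in its list. The same summit was also 251 bp upstream of a TSS of the divergent gene CG13760.

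**Figure D2:**
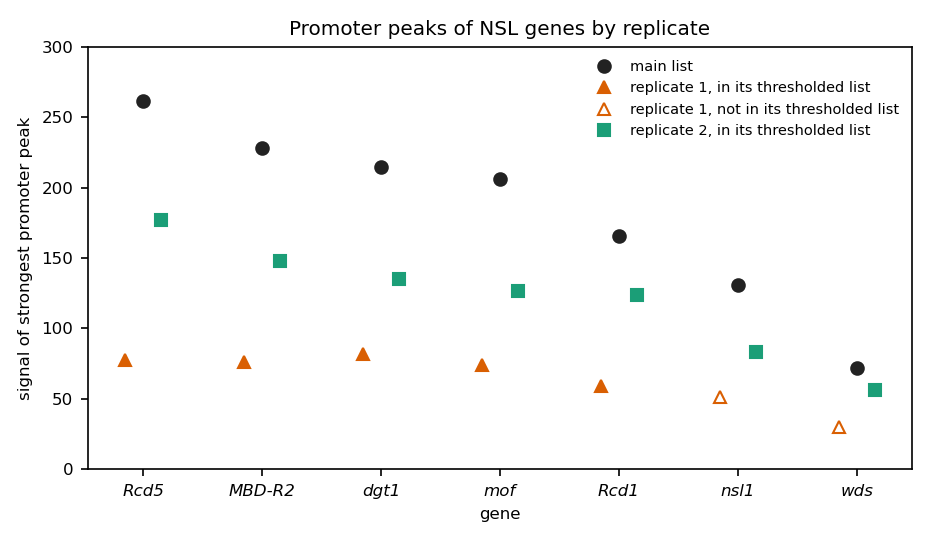
Signal of the strongest promoter peak of each NSL gene (y axis, authors' units) in the main list (circles), replicate 1 (triangles) and replicate 2 (squares); open symbols are peaks under the threshold of that replicate's list. Replicate 2 is above replicate 1 at each of the 7 genes, and the open symbols are nsl1 at 51.0 and wds at 29.9 in replicate 1.

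In order of signal in the main list the genes ran Rcd5, MBD-R2, dgt1, mof, Rcd1, nsl1 and wds. In replicate 2 the order was the same. In replicate 1 dgt1 came first with 82.1, followed by Rcd5, MBD-R2 and mof between 77.6 and 73.8, so the order of the 4 strongest genes was not held by both replicates. Rcd1, nsl1 and wds took the last 3 places, in that order, in both replicates.

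Signal was higher in replicate 2 at each of the 7 strongest promoter peaks, with ratios of replicate 2 to replicate 1 from 1.64 to 2.28 and a median of 1.88. Over 5524 promoter peaks of the main list that had a peak in both rankings, the median ratio was 1.65, with quartiles of 1.28 and 2.14. Neither the depth nor whether the signal is normalised for it is known, so a ratio is read only against this background. Of the 7, Rcd5, at 2.28, was outside the quartiles.

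The median distance of the summit from the TSS was 63 bp over the NSL genes, with a range of 12 to 146 bp, and 67 bp over all bound genes. At 2 of the 7 NSL genes, Rcd1 and Rcd5, the summit was nearer to the TSS of a neighbour, against 24.8% of bound genes. In those 2 genes the strongest peak was also the strongest promoter peak of another protein-coding gene, against 49.2% of bound genes. The wds summit is not counted here. It lay within 500 bp of a CG13760 TSS too, but CG13760 had a stronger peak.

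The main list held 20 peaks in the NSL genes or within 2 kb of them, 9 at a TSS of the NSL gene and 11 over 500 bp from each of its TSSs. The 11 peaks comprised 2 inside a gene, 3 upstream and 6 downstream. Of the 11, 8 had their summit within 500 bp of a TSS of another gene, and 3 were over 500 bp from any TSS. Over the whole main list, 5746 of 7544 summits lay within 500 bp of a TSS of some gene. The median number of peaks was 2 per NSL gene, 2 per bound gene and 1 per protein-coding gene. The gene nsl1 had 5, and 4.49% of bound genes had at least as many. In the lists of replicates 1 and 2 nsl1 had 2 and 3 peaks, and 42.3% and 32.8% of these bound genes had at least as many. As nsl1 is the longest of the 7 genes, these shares, which were not matched for length, are descriptions only. The gene wds had 4, and 12.7% of bound genes had at least as many. At least 1 peak lay in the gene or within 2 kb at 7 of 7 NSL genes in each list, against 59.0% of protein-coding genes in the main list, 53.7% in the conservative list, 47.0% in replicate 1 and 58.5% in replicate 2.

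**Figure D3:**
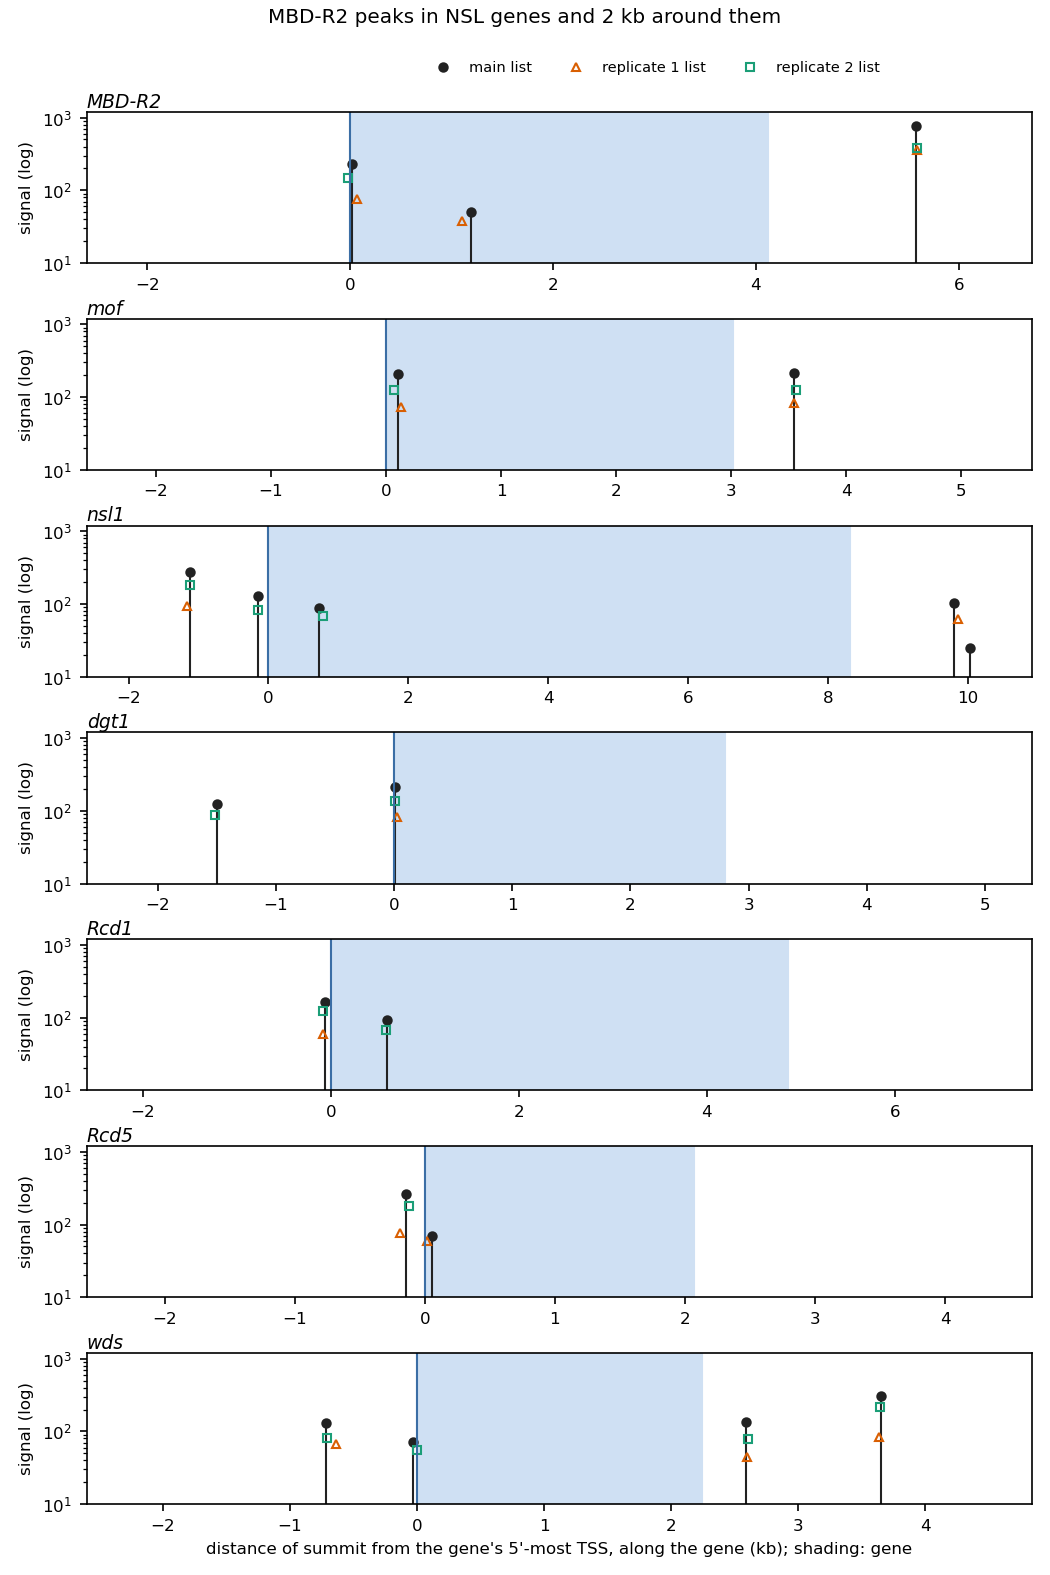
Signal (y axis, log scale, authors' units) of each peak against the distance of its summit from the 5′-most TSS along the gene in kb (x axis), for the main list (black), replicate 1 (orange triangles) and replicate 2 (green squares); shading marks the gene. Peaks gather at the start site and in the flanks, and only MBD-R2 and nsl1 have a main-list summit inside the gene more than 500 bp from a TSS.

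A peak elsewhere in the region was stronger than the gene's own promoter peak at 4 of the 7 NSL genes, against 31.1% of bound genes and 28.7% of the bound genes within the range of lengths of the NSL genes (2069 to 8321 bp). The largest such ratio was at wds. In an intron of egh, the downstream neighbour that encodes a glycosyltransferase of glycosphingolipid synthesis, a peak of signal 304.7 was 4.24 times that of the wds promoter. It had 85.0 in replicate 1 and 217.7 in replicate 2, and lay over 500 bp from any TSS. A further peak at the start of egh had a signal of 135.1, and the one at CG13760 upstream had 128.9. Both replicates listed all 3 of these neighbouring peaks, although replicate 1 did not list that of wds. The conservative list added 2 more summits in egh, with signals of 98.0 and 30.4. It so held 6 peaks for wds, while 0.455% of the genes bound in the main list had at least as many there. In the main ranking these 2 summits had −log10 IDR values of 0.119 and 0.154, under the threshold, and neither was in a replicate's list. In the conservative list both had a deposited score of 1000, and their IDR in its own ranking is not given here. In the lists of replicates 1 and 2 wds had 3 and 4 peaks, and 13.9% and 12.7% of the same genes had at least as many.

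At MBD-R2 the strong neighbour was CG10038, whose start lies downstream of the MBD-R2 3′ end. Its peak had a signal of 758.2, rank 35 of the 7544 peaks of the main list, and 3.32 times that of the MBD-R2 promoter. Replicate 1 had 357.5 and replicate 2 had 380.7, a ratio of 1.06, which exceeds that of 12.5% of promoter peaks. The summit was 39 bp upstream of the CG10038 TSS, and the letters around it, read along the same strand as MBD-R2, hold a DRE and a Motif 7 match besides TATA letters.
CG10038 summit, chr3R:12350624-12350783, minus strand: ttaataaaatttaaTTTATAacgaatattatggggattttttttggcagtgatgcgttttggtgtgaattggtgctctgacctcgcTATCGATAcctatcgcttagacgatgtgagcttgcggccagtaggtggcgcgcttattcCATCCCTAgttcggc
A DRE was thus present at the starts of MBD-R2 and CG10038, and 11.2% of the main list's promoter summits have one within 100 bp. The letters at the start of CG10041, which lies between them, are not given here.

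At nsl1 the strong neighbour was the start shared by Acyp2, an acylphosphatase gene, and c(3)G, which encodes a synaptonemal complex protein. This peak, upstream of nsl1, had a signal of 271.7, 2.08 times that of nsl1, with 92.7 in replicate 1 and 180.0 in replicate 2. At mof the neighbouring start of GAA1, a subunit of the GPI transamidase, had 212.8, which is 1.03 times that of mof, with 83.2 in replicate 1 and 127.0 in replicate 2. At dgt1 the upstream neighbour CG7824 had 124.6, or 0.580 times that of dgt1. Replicate 2 listed the CG7824 peak with 87.3, and replicate 1 had 38.6 under its threshold. No peak away from the gene's own TSSs was found in the main list around Rcd1 or Rcd5.

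At 2 of the 7 NSL genes there was a summit inside the gene over 500 bp from a TSS, against 7.91% of all protein-coding genes and 6.68% of the 4986 genes in the same range of lengths. Neither was in the conservative list, where 4.75% of protein-coding genes have such a summit. In the replicates' own lists the count was 1 of 7, MBD-R2 against 2.74% of genes in replicate 1 and nsl1 against 7.90% in replicate 2. In nsl1 the summit lay in an intron, 728 bp from the TSS, with a signal of 88.1. Replicate 2 listed it with 69.3, and replicate 1 had 19.4 with a −log10 IDR of 0.162. A run of overlapping GAGA matches on the minus strand lies beside it.
nsl1 intron summit, chr3R:15794410-15794610, plus strand: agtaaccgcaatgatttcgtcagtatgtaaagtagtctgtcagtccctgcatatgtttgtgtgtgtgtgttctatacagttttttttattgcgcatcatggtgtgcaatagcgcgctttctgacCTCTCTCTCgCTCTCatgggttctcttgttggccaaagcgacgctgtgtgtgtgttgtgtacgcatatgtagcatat
GAGA letters are common, and 20.1% of promoter summits of the main list have them within 100 bp.

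In MBD-R2 itself the inner summit lay in a coding exon, 1195 bp from the TSS, with a signal of 49.6. Replicate 1 listed it with 37.3 and a −log10 IDR of 2.00, at the threshold, and replicate 2 had 13.5 with a −log10 IDR of 0.868. Its ratio of replicate 2 to replicate 1 was 0.362, higher than that of 2.06% of promoter peaks. The full rankings, which also hold peaks under the threshold, had 7 summits in the MBD-R2 gene in replicate 1, 2 of them in its list. That is 1.70 per kb, against a median of 0.440 per kb over the 4986 genes of like length, of which 99.6% had fewer per kb. In replicate 2 the density was again 1.70 per kb, against a median of 0.993, and 88.5% of the genes had fewer. In the main ranking it was 1.94 per kb, against a median of 1.22, and 91.0% had fewer. Other NSL genes were as dense or denser in some rankings. In replicate 2 mof had 1.99 summits per kb and dgt1 had 1.79, and 96.0% and 91.6% of the genes had fewer. In the main ranking dgt1 had 2.50 per kb, and 98.8% had fewer. Whether the transgene carries the MBD-R2 stretch is not known here, and its part in the MBD-R2 values was not tested.

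Further downstream of nsl1, 2 overlapping main-list peaks lay near an antisense RNA gene, asRNA:CR45891, with signals of 103.4 and 24.5. The stronger summit was in the 3′ UTR of CG9593, and the weaker was also 426 bp upstream of alpha-Man-IIb, a mannosidase gene. A single peak of replicate 1, with a signal of 62.3, overlapped both. Replicate 2 had 49.5 under its threshold. These were the only main-list peaks in the nsl1 region that replicate 1 listed and replicate 2 did not.

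Of the 20 regional peaks, 12 overlapped a peak in both replicate lists (60.0%, Wilson 95% interval 38.7 to 78.1%), 3 overlapped one in replicate 1 alone and 5 one in replicate 2 alone. The interval treats the 20 peaks as independent, which they are not, and covers no other source of error. Several lie in the same gene region. The downstream nsl1 peaks overlap the same replicate 1 peak, and both Rcd5 peaks overlap the same peak of the replicate 2 list. The interval is therefore a description and does not measure the uncertainty of this share. One of the 12, the second Rcd5 summit, met the replicate 2 list only through the neighbouring peak 182 bp away. The same share over all main-list peaks was not computed, so the 60.0% is not read as a trait of these regions. The list of replicate 1 held 4113 peaks and that of replicate 2 held 7542. All 20 overlapped a peak in both full rankings, as did 5524 of the 5746 promoter peaks of the main list. The rankings also hold peaks under the threshold.

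**Figure D4:**
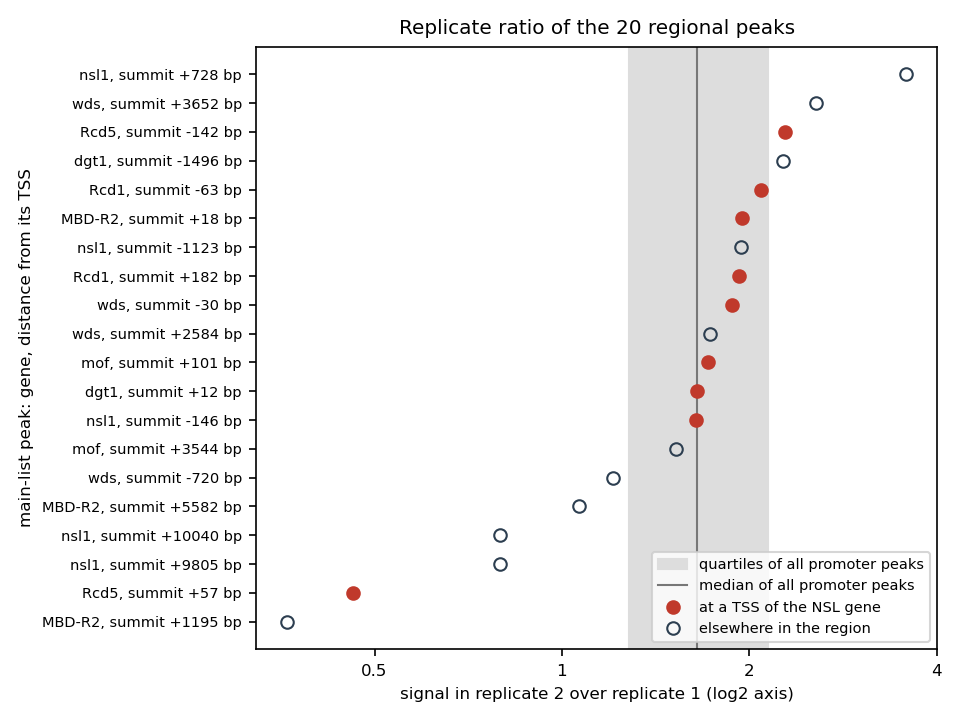
Ratio of signal in replicate 2 to replicate 1 (x axis, log2 scale) for each of the 20 main-list peaks (y axis, labelled by gene and summit distance from its nearest TSS); red points are at a TSS of the NSL gene, open points elsewhere, and the grey band and line are the quartiles 1.28 to 2.14 and the median 1.65 of all promoter peaks. The inner MBD-R2 peak, at 0.362, and the second Rcd5 peak, at 0.461, are lowest; the 2 downstream nsl1 peaks share 1 replicate peak and so have the same ratio.

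For each NSL gene listed in both replicates, the protein-coding gene with the nearest pair of replicate signals was found among 4505 genes bound in both lists, as a distance on the log2 scale over the 2 samples. MBD-R2 was nearest to Pss, a phosphatidylserine synthase gene, mof to the kinesin gene Klp31E, dgt1 to CG42542, Rcd1 to Nadk2 and Rcd5 to corolla, at distances of 0.0028 to 0.022. Between 23 genes, at Rcd5, and 78 genes, at mof, lay within 0.1 of a member, so each such neighbour is 1 of many. For nsl1 and wds there is no such gene because replicate 1 did not list their peaks.

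Genes of complexes that share subunits with NSL or are described with it were mostly bound too. Of 39 such genes, each counted once, 35 had a promoter peak in the main list, 34 in the conservative list, 28 in replicate 1 and 35 in replicate 2. Over all protein-coding genes the share was 44.0% in the main list, 39.7% in the conservative list, 33.2% in replicate 1 and 43.5% in replicate 2. The 39 genes include the RNA genes roX1 and roX2, which these shares do not cover. The median signal of the bound related genes in the main list was 178.6, with a range of 67.6 to 690.2. It was 206.1 for NSL and 170.3 for all bound genes. The NSL range, 71.9 to 261.7, lay within that of the related genes.

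In the MSL list, whose complex also holds MOF, 5 of 6 genes were bound in the main list, against 44.0% of all protein-coding genes. The 5 include the RNA genes roX1 and roX2, which that share does not cover. The same 44.0% is the share behind each count that follows. The scaffold gene msl-1 had the highest signal, 429.1, and the RNA gene roX2 the lowest, 67.6. The helicase gene mle had no peak in the main list and one of 74.6 in the conservative list. In the methyltransferase complexes that also hold WDS, 10 of 12 genes were bound, led by ash2 with 415.3, and the methyltransferase genes Set1 and trx had no promoter peak. In the ATAC acetyltransferase list 10 of 11 were bound, led by D12 and Chrac-14, which share 1 peak of 476.5, and Mocs2B was in the conservative and replicate 1 lists and not in the main list. Hcf, in both of these lists, had the lowest signal of each, 78.3. Of 10 chromatin proteins described with NSL at promoters all were bound, from Chro, the gene of chromator, at 690.2 to E(bx), a subunit of the NURF remodeller, at 129.3. The fly homologs of 2 mammalian NSL subunits, Hcf and the O-GlcNAc transferase gene sxc, had 78.3 and 125.3.

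**Figure D5:**
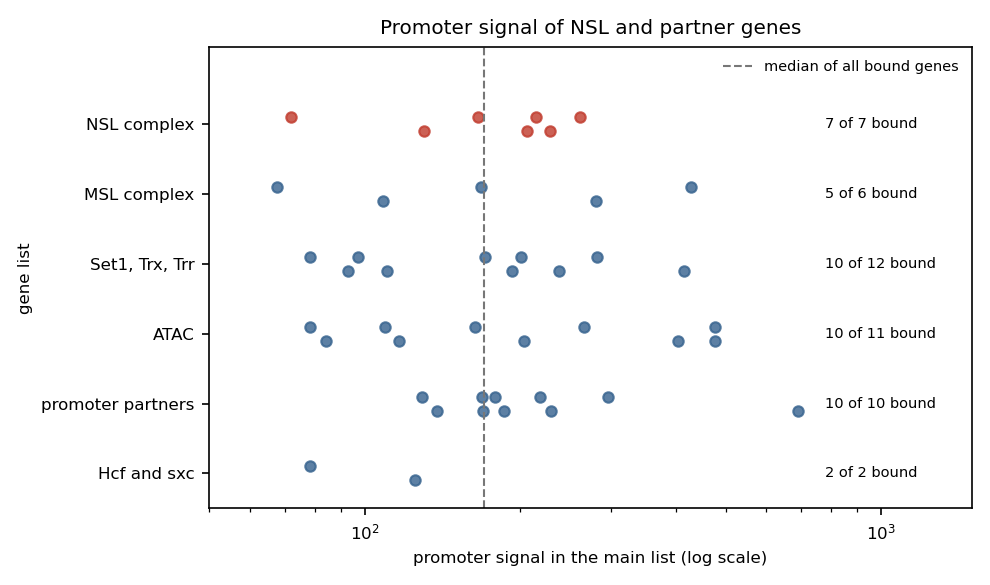
Promoter signal in the main list (x axis, log scale, authors' units) of each bound gene of the NSL complex (red, top) and of the 5 lists of related genes (blue), with the number bound at the right; the dashed line is the median of all bound genes, 170.3. The 7 NSL genes lie between 71.9 and 261.7, inside the range of the related genes, 67.6 to 690.2.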

How the data were processed

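The deposited files are peak lists on dm6, per the file headers and the labels: 1 ranking and 1 list thresholded on the IDR for each of 2 replicates, and a main and a conservative list with their rankings made from both. The sources used here do not give the aligner, the peak caller, their versions or the depth. The counting error of a peak could therefore not be computed. The signal of a peak was set by the authors, and is compared only within a list, or as a replicate ratio against all promoter peaks. The deposited score scales the IDR and is at least 830 in the main list (an IDR of 0.01), and the −log10 of the IDR is as deposited by the authors in the rankings. The labels give GFP as the antibody's target in the description and MBD-R2 in the antibody field, read here as precipitation through the tag. They list separate biosamples for the replicates.

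Genes and TSSs came from Ensembl release 115, and sequences from the RefSeq copy of the same assembly, whose chromosome lengths hold all peaks on the 7 arms. A gene was bound when a summit lay within 500 bp of a TSS, and took the signal of its strongest such peak. Regional peaks overlapped the gene or 2 kb on either side. Replicate partners overlapped by at least 1 bp. Motif strings were matched, on either strand, from 150 bp before to 50 bp after each TSS and within 100 bp of summits, and the promoter sequence of wds is not reported here. Python 3.11.15, numpy 2.4.6, pandas 2.3.3, scipy 1.17.1 and matplotlib 3.10.9 were used, and the calling steps were tested on simulated peaks. No p-value was computed, as there is 1 group.

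The members, related gene lists and motifs were chosen with earlier results of these data known. Named genes are the 7 members, genes at or holding their regional summits, the nearest gene in replicate signal, and the highest, lowest and unbound genes of each related list. A few other neighbours are named for a shared peak. Alternatives were the other lists, each replicate alone, a score of 1000, other TSS windows and flanks, the 5′-most TSS, the nearest peak, other rankings and a stricter overlap.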

Additional observations from a re-analysis of the deposited data

How the results depend on the processing

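The count of 7 NSL genes bound at a promoter was the same under the conservative list, without replicate 1, at a score of 1000, with windows of 250 and 1000 bp and at the 5′-most TSS, and was 5 without replicate 2, where nsl1 and wds were not listed. The median percentile of NSL promoter signal, 62.6, was 61.4 without replicate 1 and from 58.4 to 67.3 under the other alternatives. Without replicate 2 it was 47.2, over the 5 listed genes only, so this value is not for the same set. The number of regional peaks, 20, was 14 without replicate 2 and 16 without replicate 1, 19 in the conservative list, 14 with a flank of 1 kb and 10 with no flank. The share of regional peaks with a partner in both replicate lists, 60.0%, was 45.0% with an overlap of 50% of both peaks. It was 100% in the full rankings, where 5524 of the 5746 main-list promoter peaks also had a partner in both replicates. The promoter signal of Rcd5 was 261.7 and became 68.6 with the nearest peak, below that of wds, and that of wds was 71.9 and became 128.9 with the 1000 bp window, which takes in the CG13760 peak. No paired analysis was possible because there is 1 group. The depth of the libraries is unknown, so that whether the weak peaks of nsl1 and wds in replicate 1 reflect depth was not tested.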
